A study of Mus musculus with 15 samples.

Results

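The clock and PAR bZIP genes described here are 10 mouse genes: Dbp, Tef, Per1, Per2, Cry1, Nr1d1, Nr1d2, Bhlhe41, Npas2 and Clock. All regions of 3 deposited p53 ChIP-seq region lists that lay inside one of these genes or within 20 kb of it in the RefSeq annotation of mm10 were taken. That gave 12 regions of 4137 distinct regions in all, at 8 of the 10 genes. The genes were chosen by the presence, place and score of their regions in these same lists, so the values below are descriptions and carry no test. In ChIP-seq, chromatin bound by a protein is captured with an antibody and its DNA sequenced; the protein here was p53, a transcription factor that accumulates after DNA damage. The study used organs of wild-type mice. Liver, spleen and thymus each have 5 libraries: 2 from X-rayed mice (2 Gy, taken at 3 h), 2 from mice without treatment and 1 input library of chromatin. No age, strain or sex is given in the labels, and the antibody is not named in them. Each organ has 1 list, which the labels attach to all 5 of its libraries, and the list names refer to irradiation and to IgG. The lists therefore compare organs and cannot be split by irradiation or by replicate.

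The mammalian clock is a transcriptional feedback loop. CLOCK, or its relative NPAS2, pairs with BMAL1 and drives genes through E-box elements, among them the Period and Cryptochrome genes, whose proteins then block that pair. The same drive reaches the nuclear receptors REV-ERB alpha and beta (Nr1d1 and Nr1d2), which repress Bmal1, the repressor DEC2 (Bhlhe41), which competes at E-boxes, and the PAR bZIP factors DBP and TEF, which activate genes through D-box elements. In liver this output sets daily rhythms of many metabolic and detoxification genes.

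The 12 regions fell mainly into 2 kinds. Liver-only regions numbered 6, of which 3 lay at a gene end, at Nr1d1, Nr1d2 and Per1. A region counted as a gene-end one when its midpoint was at most 1 kb from where some annotated gene begins or stops. Regions held by all 3 lists numbered 4, and all 4 lay away from gene ends, at Nr1d2, Bhlhe41 (2 regions) and Npas2. With a 2 kb limit for gene ends the liver-only gene-end regions numbered 5 and the common distal ones 3. The common distal ones numbered 1 among the 50% of regions with the highest scores, and 2 with lists shortened to the length of the shortest. The remaining 2 of the 12 were held by a pair of lists, 1 inside Dbp (liver and spleen) and 1 at an end of Ilkap, 17127 bp outside Per2 (liver and thymus). No region at these genes was held by spleen or thymus without liver, which was the case for 265 of the 4137 regions. Over all distinct regions 24.5% were liver-only and at a gene end, 5.80% were liver-only and away from gene ends, 37.8% were in all 3 lists and away from gene ends, and 8.85% were in all 3 lists and at a gene end, a kind with no member region. These shares hold for the full lists and the 1 kb limit, and were not recounted for the other settings. The shares among the 12 are set by the choice of genes, and nothing is read from them.

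Of the 10 genes, 8 had a region in the liver list, 4 in the spleen list and 4 in the thymus list. By the same 20 kb rule, the shares of the 21887 coding genes with a region were 22.3% for liver, 12.8% for spleen and 11.6% for thymus. A region of any list was found for 8 members, against 23.0% of all coding genes. A region of all 3 lists was found for 3 members, against 9.00% of coding genes, and a liver-only gene-end region for 3, against 9.13%. More than 1 region was found for 4 members (Dbp, Nr1d1, Nr1d2 and Bhlhe41), against 4.44% of coding genes. The lists held 3872 regions in liver, 2604 in spleen and 2405 in thymus. Among only the 50% of regions with the highest scores per list, members with a region numbered 4 in liver, 3 in spleen and 2 in thymus. The shares of all coding genes were not recounted for these shorter lists, so the shares above are no background for these 3 counts. A region absent from a list may be weaker there or missed, because the read depth behind the lists is unknown.

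**Figure D1:**
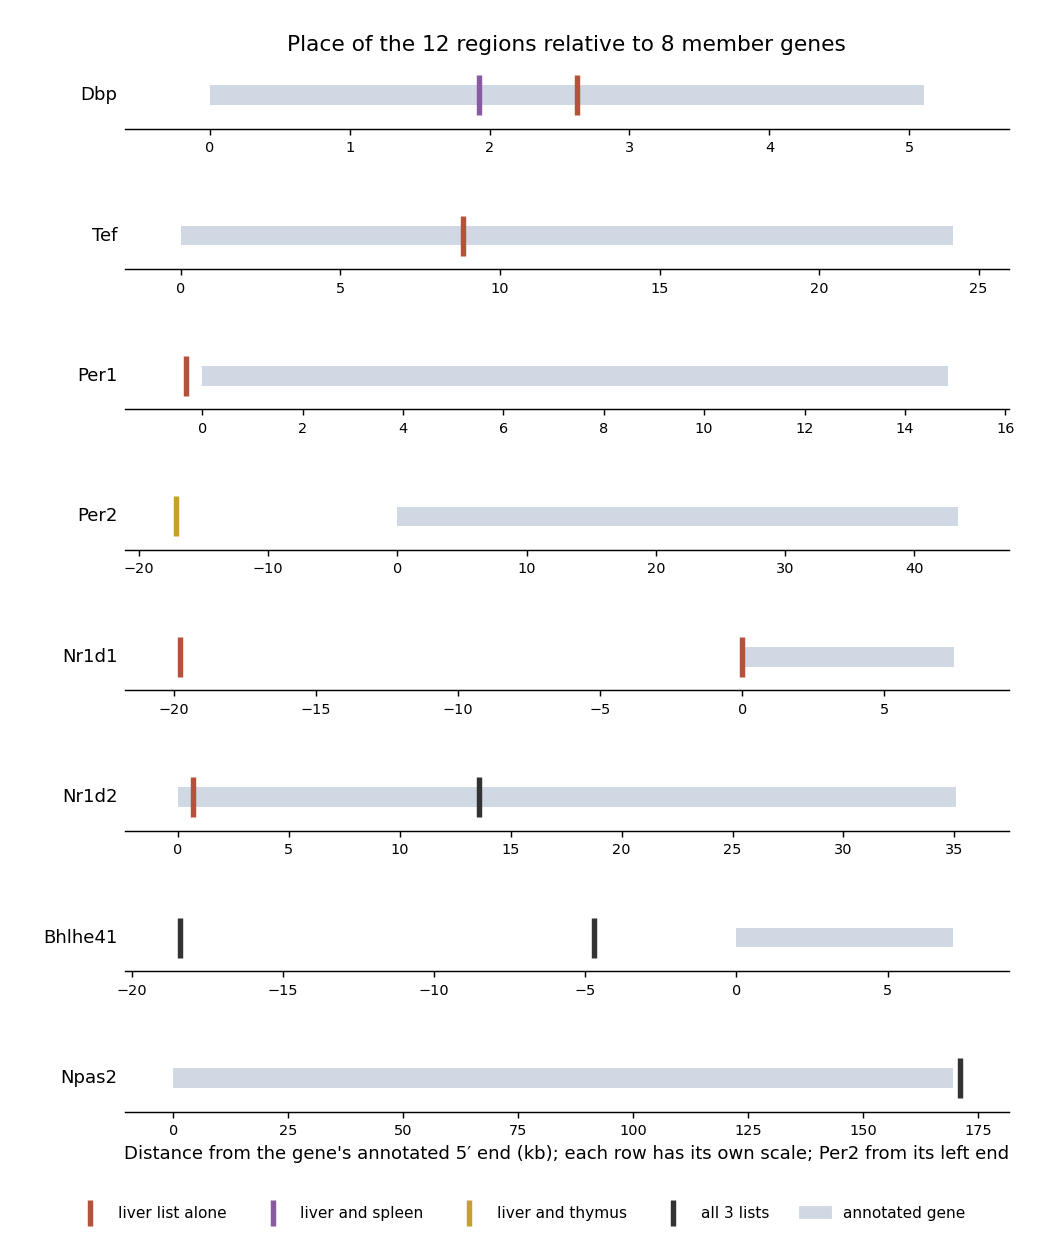
Place of the 12 regions relative to the 8 member genes that have one. The grey bar is the annotated gene, the x axis is the distance in kb from its 5′ end (from its left end for Per2), each row has its own scale, and the tick colour gives the lists that hold the region. Liver-only ticks sit at or near the 5′ end of Nr1d1, Nr1d2 and Per1, and also inside Dbp and Tef and 19724 bp upstream of Nr1d1; ticks of all 3 lists lie inside Nr1d2, upstream of Bhlhe41 and past Npas2.

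Sequence of the promoter windows is shown for the pair of members whose liver-only region lay on a RefSeq start site (Nr1d1) or just past a promoter window (Tef), to show the sequence at these places. The windows are RefSeq sequences on GRCm38.p6 (the assembly behind mm10) and run from 250 bases before the start site to 50 after it. In the Nr1d1 window (chr11:98775328-98775627, minus strand) capitals mark the 123 bases of the 150 bp liver region that fell in the window. In the window of the internal Tef start site (chr15:81811164-81811463, plus strand) capitals mark the E-box CACGTG, and the liver region began past the window, after a gap of 37 bases, so none of its bases are shown.
Nr1d1 promoter: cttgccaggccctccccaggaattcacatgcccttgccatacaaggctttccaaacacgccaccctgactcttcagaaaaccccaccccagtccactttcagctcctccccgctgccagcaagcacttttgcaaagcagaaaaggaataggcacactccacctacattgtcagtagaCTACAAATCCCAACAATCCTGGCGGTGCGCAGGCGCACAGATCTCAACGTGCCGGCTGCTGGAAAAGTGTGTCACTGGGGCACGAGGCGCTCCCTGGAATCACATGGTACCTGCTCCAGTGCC
Tef internal promoter: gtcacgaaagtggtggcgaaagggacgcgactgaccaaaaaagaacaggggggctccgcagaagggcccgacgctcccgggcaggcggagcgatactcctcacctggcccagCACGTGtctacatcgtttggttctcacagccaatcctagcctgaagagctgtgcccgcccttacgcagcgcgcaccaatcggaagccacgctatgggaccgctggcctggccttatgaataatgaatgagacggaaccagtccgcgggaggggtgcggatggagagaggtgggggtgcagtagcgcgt
The 123 bases in capitals in the Nr1d1 window were 60.2% G or C, against 56.3% over the whole window. The Tef window was 62.0% G or C.

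The PAR bZIP genes Dbp and Tef held 3 of the regions. Dbp, a D-box activator of liver genes, had a pair of regions inside the gene, 550 bp apart. The upstream one (chr7:45706901-45707150) had its midpoint 1778.5 bp downstream of the start site. It was at the 86.1 percentile of scores in the liver list (rank 534 of 3872) and the 9.37 percentile in the spleen list (rank 2361 of 2604), and was not in the thymus list. A percentile gives the share of regions of that list with a score no higher, ties averaged, since the scale of the authors' scores is not given. The liver minus spleen difference of 76.7 percentage points was exceeded by 3.42% of the 2368 regions that those lists share. It was the largest gap in favour of liver among the member regions with more than 1 list. The downstream one (chr7:45707701-45707750) was 50 bp wide, in the liver list alone, at the 23.1 percentile. Dbp is a short gene of 5104 bp, and both regions also lay within 5 kb of Car11, a carbonic anhydrase relative, and Sphk2, a sphingosine kinase gene. The upstream region was 2214 bp from Car11 and 2313 bp from Sphk2. Its midpoint was 7058.5 bp downstream of the Car11 start site and 8181.5 bp downstream of the Sphk2 start site, against 1778.5 bp for Dbp. Of the 3 genes, Dbp thus had the nearest start site, but position alone does not settle the gene the region belongs to.

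Tef, the other PAR bZIP member, had a single region of 50 bp (chr15:81811501-81811550), in the liver list alone, at the 38.8 percentile (rank 2369). It lay 8852.5 bp from the nearest annotated gene end and so did not count as a gene-end region. RefSeq lists 2 start sites for Tef, however, and the midpoint was 111.5 bp downstream of the internal one. Counted from start sites instead of gene ends, the Tef region moves to the promoter kind. No other coding gene lay within 5 kb of it.

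The negative limb of the loop was represented by Per1, Per2 and Cry1. Per1, a Period repressor gene, had 1 liver-only region of 150 bp (chr11:69094701-69094850) at the 35.5 percentile (rank 2498). It lay 258 bp upstream of the annotated gene, and its midpoint was at -4173.5 bp from the nearer of the 2 start sites in the promoter table. The synaptic vesicle gene Vamp2 was 2320 bp away on the other side. Per2 had no region inside the gene. The region counted for it (chr1:91398801-91398850) overlapped one end of Ilkap, which encodes a protein phosphatase, and is nearer to that gene than to Per2. It was at the 24.7 percentile in liver and the 20.6 percentile in thymus. That liver minus thymus difference of 4.16 percentage points was inside the quartiles of all 2179 regions shared by those lists (-24.9 and 25.3). Cry1 had no region within 20 kb in any list.

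The REV-ERB genes held 4 regions. At Nr1d1 a liver-only region of 150 bp (chr11:98775301-98775450) spanned the start site, with its midpoint 1.5 bp from it. This region, of which 123 bases are shown in capitals in the Nr1d1 promoter, was at the 63.4 percentile in liver (rank 1419), the highest of the 6 liver-only regions. Its midpoint also lay 35.5 bp from the start site of Gm31862, a noncoding gene that runs the other way. The other Nr1d1 region (chr11:98795101-98795250), also liver-only, was 19724 bp upstream of Nr1d1 and inside Msl1, a subunit gene of a histone acetyltransferase complex. Its midpoint was at -340.5 bp from an Msl1 start site, its score at the 60.4 percentile, and it is counted for Nr1d1 only by the 20 kb window.

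Nr1d2 carried both kinds of region in the same gene. The region 13580.5 bp downstream of the start site (chr14:18225201-18225850) was 650 bp wide, the widest of the 12. Its score was at the 98.9 percentile in the liver list (rank 42), 98.8 in the spleen list (rank 29) and 95.4 in the thymus list (rank 93). The 3 lists thus placed it alike near their top, with differences of 0.17 percentage points for liver minus spleen and 3.58 for liver minus thymus. The region near the start site (chr14:18238301-18238550) was in the liver list alone, at the 50.9 percentile (rank 1902), with its midpoint 680.5 bp downstream of the start. No other coding gene lay within 5 kb of either, and 12450 bp separated them.

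By the rule used to name genes of like pattern, the 3 whose shared regions were nearest to this Nr1d2 region in the 3 percentiles were Dyrk3, Sh3bgrl2 and Bax. The measure was the Euclidean distance over 3 lists, among 1930 regions held by all 3. Dyrk3, a protein kinase gene, was at distance 1.43, with percentiles of 99.8 in liver, 98.2 in spleen and 96.3 in thymus. Sh3bgrl2 was at 1.46 (99.4, 99.2 and 94.1 in the same order). Bax, the effector of mitochondrial apoptosis, was at 1.53 (99.9, 97.6 and 95.4).

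Bhlhe41, which encodes the E-box repressor DEC2, had no region inside the gene and 2 upstream of it, each 250 bp wide and held by all 3 lists. The nearer (chr6:145870001-145870250) was 4581 bp outside the gene. Liver had it at the 35.2 percentile (rank 2507), spleen at 95.4 (rank 108) and thymus at 97.9 (rank 51). Spleen and thymus thus placed this region near their top, and liver in its lower part. The liver minus thymus difference was -62.7 percentage points, and 4.18% of the 2179 shared regions had a lower one. The liver minus spleen difference was -60.2, with 5.57% of the 2368 shared regions lower.

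The farther Bhlhe41 region (chr6:145883701-145883950) lay 18281 bp outside the gene. Liver had this one at the 56.1 percentile, spleen at 85.4 and thymus at 41.6, so spleen ranked it highest and liver and thymus lower. The spleen minus thymus difference of 43.8 percentage points was exceeded by 6.11% of the 2127 regions those lists share. The pair of Bhlhe41 regions therefore did not share a pattern: thymus was the highest of the 3 lists at the nearer and the lowest at the farther.

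Of the positive limb, Npas2 had a region and Clock had none within 20 kb in any list. The Npas2 region (chr1:39364801-39364850), 50 bp wide, lay 1561 bp past the downstream end of the gene, and 3001 bp from the ribosomal protein gene Rpl31. Its percentile was 3.87 in the liver list (rank 3723), 68.0 in the spleen list (rank 835) and 12.1 in the thymus list (rank 2115). Only spleen placed it in its upper part, and in liver it was close to the bottom of the list. The liver minus spleen difference was -64.1 percentage points, with 4.31% of shared regions lower, and spleen minus thymus was 55.9, with 2.82% higher.

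**Figure D2:**
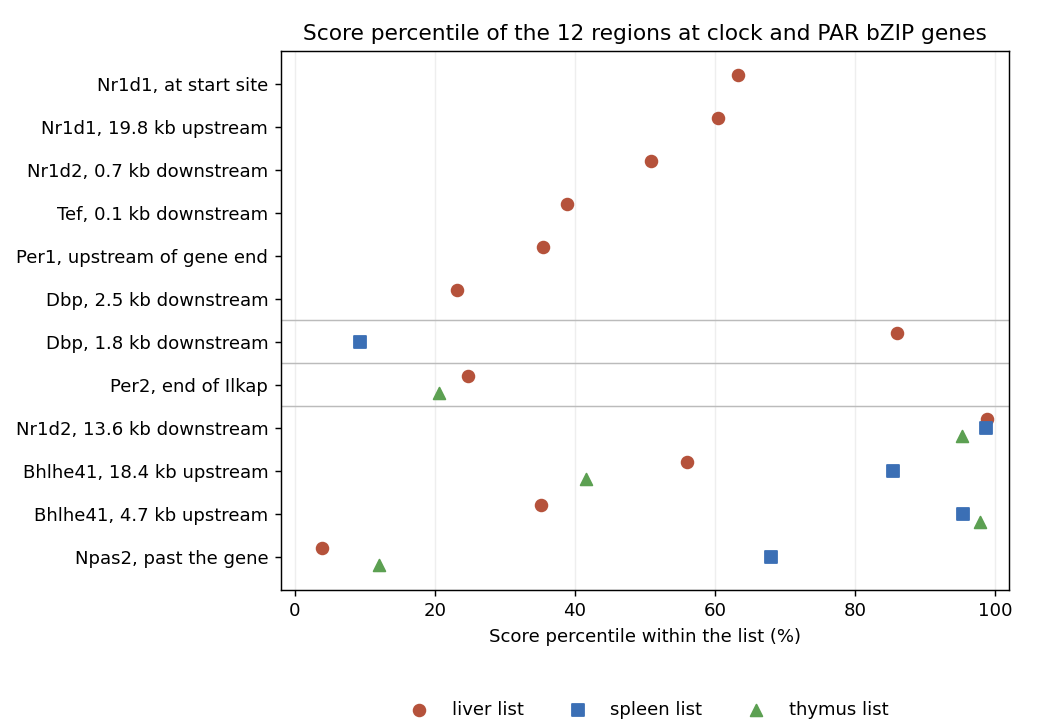
Score percentile of each of the 12 regions within each list that holds it. Labels give the distance from the gene's nearest RefSeq start site. For Per1, Per2, Npas2 and the Nr1d1 region at the start site they give the place in words. Lines separate regions of the liver list alone, of liver and spleen, of liver and thymus, and of all 3 lists. The 6 liver-only regions lie between 23.1 and 63.4, while regions of all 3 lists run in liver from 3.87 to 98.9.

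Within the liver list the score percentiles of the liver-only and the common regions at these genes overlapped. Scores were among the values by which the genes were chosen, so neither a likeness nor a difference is read from this. The 6 liver-only regions had a median liver percentile of 44.9 (23.1 to 63.4), against 48.4 for all 1255 liver-only regions. The 4 common ones had a median of 45.7 (3.87 to 98.9), against 52.3 for all 1930 regions of the 3 lists. Median widths were 150 bp for the liver-only and 250 bp for the common member regions, the same as the medians of those kinds over all regions.

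Liver ranked 3 of the 4 common regions lower than spleen did. Npas2, both Bhlhe41 regions and Nr1d2 gave liver minus spleen differences of -64.1, -60.2, -29.3 and 0.17 percentage points. Over all 2368 shared regions the median of that difference was 0.76 and the quartiles were -24.6 and 26.0. Of these regions, 49.0% had a difference lower than that of Nr1d2. Liver minus thymus gave -8.23 for Npas2, -62.7 for the nearer and 14.5 for the farther Bhlhe41 region, and 3.58 for Nr1d2. With 1 list per organ there is no replicate error to set these differences against.

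**Figure D3:**
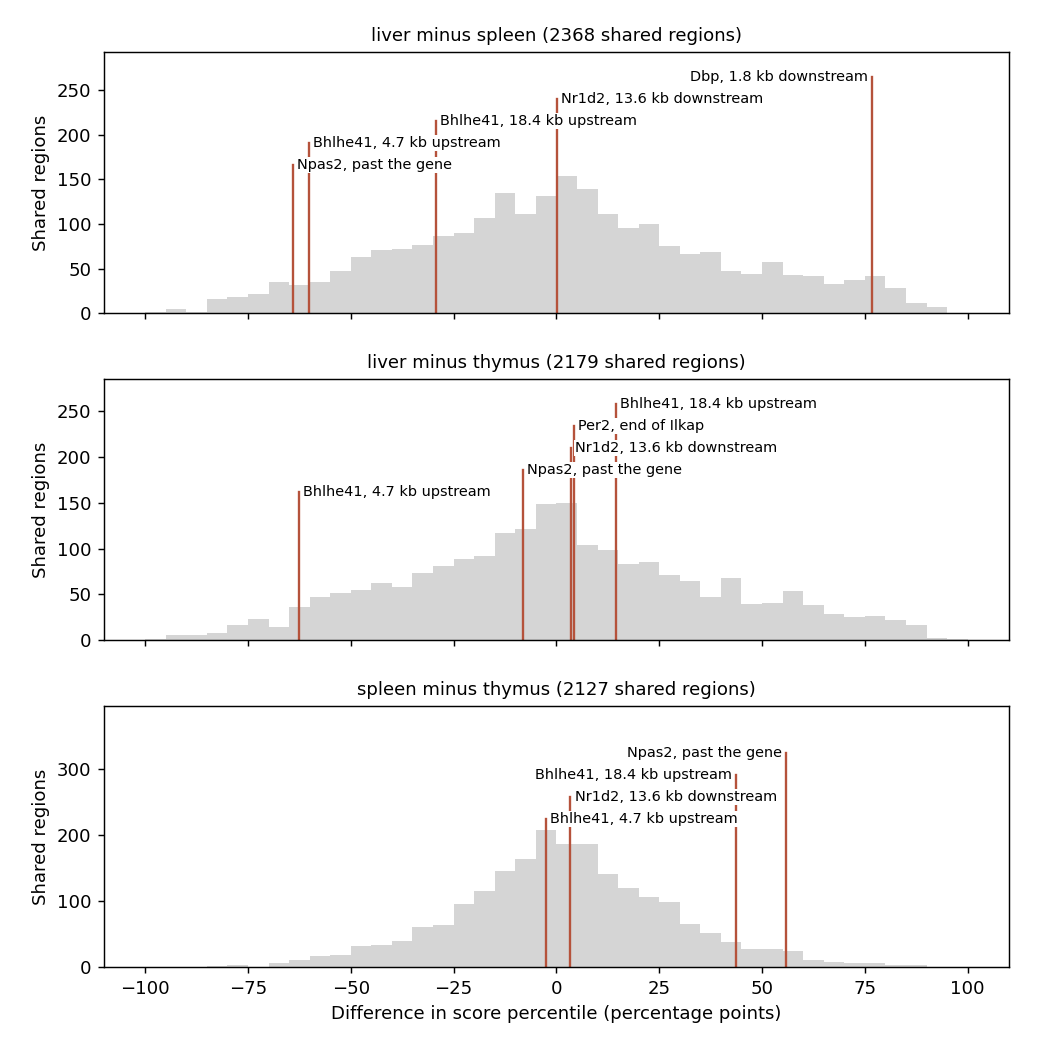
Difference in score percentile between a pair of lists, in percentage points, for all regions that the pair shares (grey, bins of 5 points) and for the member regions (red lines). Dbp is at 76.7 in liver minus spleen, the nearer Bhlhe41 region is at -60.2 and -62.7 in the liver panels, and Nr1d2 lies near 0 in all 3.

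Gene ends and start sites did not pick the same liver-only regions. Within 1 kb of an annotated gene end were 3 of the 6 (Nr1d1, Nr1d2 and Per1). Within 1 kb of a RefSeq start site of any gene were 4: those of Nr1d1, Nr1d2 and Tef and the one at Msl1. By either measure 5 of the 6 were near such a place, and the remaining one was the downstream Dbp region, 2478.5 bp from the start site. All 4 common regions stayed distal by both measures.

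The promoter table held 13 windows for 9 of the 10 genes. Exact matches were searched on both strands, and no motif searched overlapped another in these windows. The E-box CACGTG was in 5 windows of Bhlhe41, Cry1, Per1 and Tef (both Tef start sites), against 7.15% of all 32851 windows. AGGTCA, the core of the element bound by REV-ERB and ROR receptors, was in 3 windows, of Clock, Nr1d2 and Per1, against 16.3%. The D-box letters TTATGTAA and TTACGTAA, TGACGTCA (the cAMP response element) and the p53 consensus decamer were in none of the 13, against 1.06%, 1.79% and 8.36% of all windows. These matches concern the promoter windows only, as 11 of the 12 regions overlapped no member window and their bases were not read here.

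A list of 29 other clock genes was used to set the members in their pathway. A region within 20 kb was found for 11 of the 29 in liver, 8 in spleen and 6 in thymus, beside the 22.3%, 12.8% and 11.6% of all coding genes. These 11 genes had 12 regions, 7 of them in all 3 lists, 2 in liver and spleen and 3 in liver alone. The 3 liver-only ones were all at gene ends, at Timeless (57.1 percentile), Prkaa1 (31.6), an energy-sensing kinase subunit, and Nampt (24.0), the enzyme of NAD salvage. Most liver-only regions of the whole series were too, 1015 of 1255, so this place is not particular to clock genes. Among common regions, one 10538 bp outside Btrc, a ubiquitin ligase subunit that targets PER proteins, ranked at 51.9 in the liver list, 89.0 in the spleen list and 94.4 in the thymus list. One 15823 bp outside Nfil3, whose product represses through D-boxes, lay inside another annotated gene with percentiles of 5.27 (liver), 76.4 (spleen) and 63.2 (thymus). One inside Rora, a nuclear receptor that activates where REV-ERB represses, ran the other way, at 78.6, 30.5 and 5.36. The other common Rora region, at a gene end 9655 bp outside Rora, was low in each list, at 31.22 (liver), 13.98 (spleen) and 16.22 (thymus). Csnk1e, a kinase gene for PER proteins, held a region with percentiles of 53.5 (liver), 81.1 (spleen) and 58.5 (thymus). The other genes of the list with a region were Csnk1a1, Gsk3b, Wdr5 and Cul1. The common region inside Gsk3b was at 54.1 (liver), 20.2 (spleen) and 64.3 (thymus). The one inside Cul1 was at 30.1, 38.1 and 40.5 in the same order. Bmal1 itself (Arntl in the annotation), Cry2, Per3, Hlf and Bhlhe40 had no region.

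**Figure D4:**
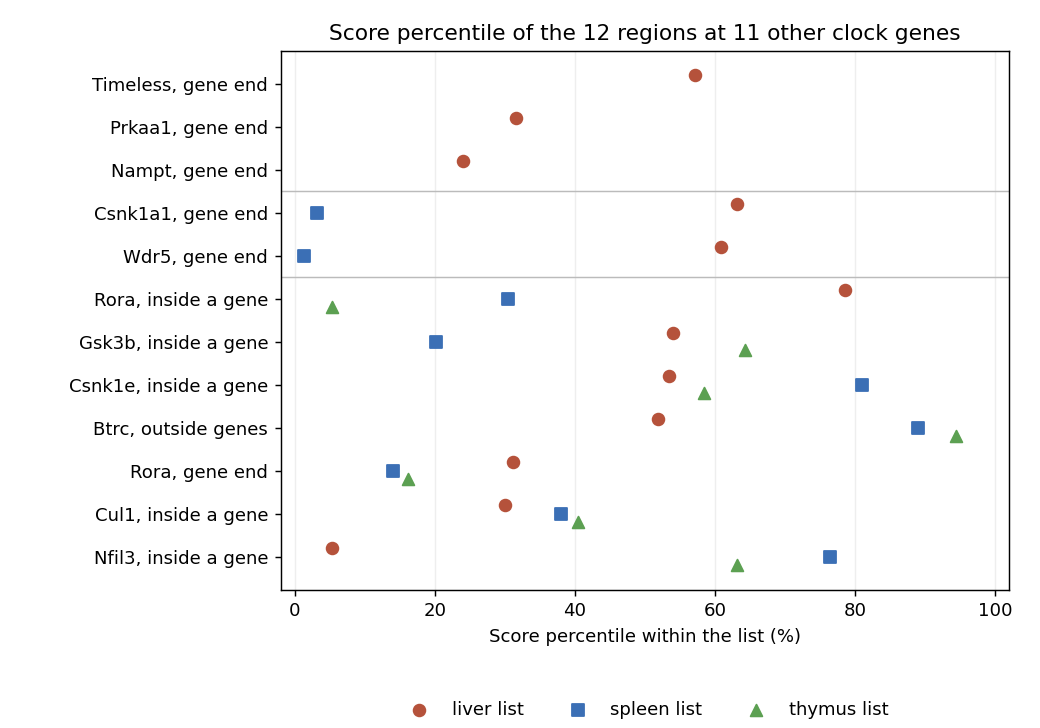
Score percentile of the 12 regions at 11 other clock genes within each list that holds them, with the place of the region. Lines separate regions of the liver list alone (3), of liver and spleen (2) and of all 3 lists (7); the 2 liver and spleen regions, at Csnk1a1 and Wdr5, lie higher in liver, at 63.2 and 60.9, than in spleen, at 3.13 and 1.29.

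The 20 kb limit fell between regions at 19724 bp and 27281 bp from their genes, close to the first. With windows of 5 kb and 50 kb, members with a region of any list numbered 7 and 9. Just inside it lay the Nr1d1 region at 19724 bp and the Bhlhe41 region at 18281 bp. The nearest one outside was another region upstream of Bhlhe41 (27281 bp), at the 5.09 percentile in liver and 90.0 in spleen and absent from thymus. The next was a liver-only region 28950 bp downstream of Cry1 at the 23.2 percentile, at the ends of Fhl4 and Tmem263.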

How the data were processed

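The authors deposited 1 headerless list of p53 ChIP-seq regions per organ, with a score for each region in column 5. The scale of the authors' score is not given, nor are the aligner, region caller, settings or pooling, in the sources used here. Per the submitters' processing notes, the genome build is mm10. Region boundaries lie on multiples of 50 bp, which limits how finely positions are known.

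Regions of the 3 lists were joined by their coordinates and placed against 49943 RefSeq genes of GRCm38.p6 (21887 coding) with Python 3.11.15 and pandas 2.3.3. Scores were turned into percentiles within each list (SciPy 1.17.1). Start sites and strand came from the RefSeq promoter table. The code was checked on planted regions. One gene planned for the other clock list was left out of the counts and is not reported here. Members and gene lists were chosen with earlier results of these data known. The naming rule covered all members, coding genes within 5 kb of their regions, other clock genes with a region, and the 3 genes nearest in pattern to the top common region. Gm31862, Fhl4, Tmem263 and the clock genes without a region were named after their values were seen. No library-level values were used, so no test, replicate error or effect of irradiation is given.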

Additional observations from a re-analysis of the deposited data

How the results depend on the processing

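Of 58 recounts under other settings, 47 were within 1.5 times the reported count. With the upper 50% of each list by score, members with a region numbered 4 in liver, 2 in thymus and 5 in any list, other clock genes numbered 7 in liver and 3 in spleen, and common distal member regions numbered 1. With lists shortened to the shortest, members in liver numbered 5, other clock genes in liver 7 and common distal regions 2. A gene window of 50 kb gave 10 other clock genes in thymus. A gene-end window of 2 kb gave 5 liver-only gene-end regions. Fewer regions enter under the first 2 settings by construction. Shares of all coding genes and of all regions were not recounted under any of these settings, so these counts have no background beside them. Counting start sites, chosen after seeing the data, gave 4 liver-only regions.

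The 4 common member regions, 2 of them at Bhlhe41, had a median liver minus spleen difference of -44.7 percentage points within the whole lists. Ranked only among regions of all 3 lists, the median was -42.7. Under this change 9 of 15 percentile values moved by more than a set margin. The margin was 2 points for medians and an exact binomial 95% interval for single percentiles. That interval follows from rank and list length alone, so it measures no error in these data. No paired analysis was possible because each list joins the libraries of an organ and no result comes from a test. For the same reason no replicate could be left out. Read depth, which limits what a list misses, is unknown.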
